A study of Mus musculus with 22 samples.

Results

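The nuclear-encoded subunits of respiratory complexes II to V, with cytochrome c, were followed across germinal center B cells of mouse spleen. Members were the genes of the UMI matrix named Sdha, Sdhb, Sdhc, Sdhd, Cyc1 and Cycs, and every gene whose symbol starts with Uqcr, Cox4i, Cox5, Cox6, Cox7, Cox8 or Atp5. The rule gave 45 of the 14407 genes: 4 of complex II, 9 of complex III, cytochrome c itself, 15 of complex IV and 16 of complex V. The rule uses symbols alone, so it also takes in Cox7a2l and Atp5s, the latter listed as Dmac2l in RefSeq. Cox7a2l is known as a factor that joins complexes III and IV into supercomplexes, an activity not tested in these mice.

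The study captured single germinal center B cells with 10x 5′-end gene expression and receptor sequencing. The NP libraries (NP 1 and NP 2) held cells of mice immunized with 100 µg NP(23)-KLH, a hapten on a carrier protein, and sorted on day 13 as B220+ Fas-high GL-7-high cells that bound NP. The OVA library (OVA 1) held cells of mice given 100 µg OVA, ovalbumin, and sorted through the same gate without antigen binding; its day of sorting is not given in the sources used here. All mice were 8-week-old C57BL/6 males by their labels, and both antigens came in 50% alum with 1 µg LPS. The labels do not tie libraries to animals, and each p-value below reflects no more than how these 3 libraries vary, which may be technical.

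Complex II oxidizes succinate and passes its electrons to ubiquinone, complex III hands them on to cytochrome c, and complex IV passes them to oxygen. Complexes III and IV pump protons across the inner mitochondrial membrane, and complex V, the ATP synthase, lets them back to make ATP. Complexes III, IV and V also need subunits made from mitochondrial DNA, whereas complex II is built from nuclear genes alone.

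The matrix held 3765, 2104 and 3004 cells of NP 1, NP 2 and OVA 1, and 2329, 1581 and 2113 of them were used, each thinned to 2500 UMIs (unique molecular identifiers, 1 per captured RNA molecule). Levels are given as counts per 1000000 thinned UMIs of the same cells in a library (CPM), so they are shares of a cell's RNA. The libraries shared 9 to 11 cell barcodes pairwise. All 8 germinal center markers were detected in each library. Of the plasma cell list, Jchain stood at 752, 919 and 531 CPM and Mzb1 at 825, 1012 and 876. Prdm1 did not exceed 2.1 CPM and Sdc1 0.19, and Xbp1, Slamf7 and Irf4 lay between. Cells with more UMIs over the T, NK, myeloid and erythroid lists than over the B cell list had been removed (12, 24 and 49 cells). That filter by itself lowers the markers of those lists. In the cells left, no T or NK cell marker exceeded 2.1 CPM and no myeloid marker 10.2. Of the 5 erythroid markers, Hbb-bt, a beta-globin, was highest at 52.0, 16.2 and 49.6 CPM, Hbb-bs reached 19.1, and Alas2, the erythroid enzyme of heme synthesis, was at 0. Cd79a, a B cell receptor subunit, stood at 2364, 2862 and 2946 CPM.

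In all cells the 45 members together gave 16691 CPM in NP 1, 17600 in NP 2 and 17066 in OVA 1. Complex V made up 8037 ± 194, complex IV 5974 ± 185, complex III 2391 ± 76.7, complex II 510 ± 20.5 and cytochrome c 208 ± 19.8 CPM (mean ± SD, n = 3 libraries). These are counts of molecules captured at their 5′ ends, not scaled by length, and their order across genes is a description. Atp5e, the epsilon subunit of the ATP synthase head, was the highest member of complex V at 1090 ± 55.3 CPM, and Atp5s the lowest at 14.7 ± 1.97. In complex IV, Cox4i1, the broadly expressed form of subunit 4, was highest at 1027 ± 29.4. Uqcrh, the hinge protein beside cytochrome c1, led complex III at 614 ± 43.4, and Uqcrc2, a core protein, was its lowest at 151 ± 11.3. Sdhb, the iron-sulfur subunit, led complex II at 287 ± 24.985, and Sdhc, a membrane anchor, was its lowest at 33.5 ± 0.181.

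The isoforms of complex IV known from other tissues were close to 0. Cox6a2, the heart and muscle form of subunit 6a, gave 0.063 ± 0.109 CPM, and Cox4i2, the form known from lung, 0.142 ± 0.129. Cox7a1, another heart and muscle form, gave 3.06 ± 0.539, and Cox6b2, the testis form, 4.34 ± 1.65. Cox4i1 supplied at least 99.976% of the Cox4i UMIs and Cox6a1 at least 99.951% of the Cox6a UMIs in each library. These 4 low genes did not pass the low-count filter of the tests within libraries, which leaves 41 members tested there. Atp5k, subunit e of the synthase, differed most between libraries among the higher members, at 359 in NP 1, 159 in NP 2 and 208 CPM in OVA 1.

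Promoters of 35 of the 45 members were found in the RefSeq promoter table of build GRCm38.p6, which covers 250 bases before to 50 after each start. A set of 4 short motifs was searched on both strands over these windows. The NRF1 motif (GCGC, any base, then TGCGC), named for a factor known for driving respiratory genes, was present in 10 of the 35 members (28.6%), against 5.19% of all 27025 genes of the table. The ETS motif CCGGAAG was present in 12 (34.3%), against 9.93%. The E-box CACGTG, the sequence that Myc binds, was present in 4 (11.4%), against 8.09%, and the cyclic AMP response element TGACGTCA in 2 (5.71%), against 2.03%. A match is a description of letters and not of binding. The promoters below were picked, with the values known, to show the variety among the members: the member with the largest fold in mitotic cells, cytochrome c, a complex IV subunit with 2 NRF1 matches, the complex III subunit that fell, and the 3 genes for the c-ring. The Atp5g3 and Atp5g1 windows are drawn around starts inside the gene, whose outer ends RefSeq places at 73912464 and 96075694. Each is printed 5′ to 3′ along the minus strand it is read from, with the matches of any of the 4 motifs in capitals.
Sdhd (chr9:50603800-50604099, minus strand): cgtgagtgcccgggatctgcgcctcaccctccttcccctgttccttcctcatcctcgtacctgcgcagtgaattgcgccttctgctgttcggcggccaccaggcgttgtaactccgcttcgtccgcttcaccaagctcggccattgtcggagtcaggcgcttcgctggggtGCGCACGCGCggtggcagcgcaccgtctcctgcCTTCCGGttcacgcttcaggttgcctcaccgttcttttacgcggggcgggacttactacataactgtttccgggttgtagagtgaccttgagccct
Cycs (chr6:50566520-50566819, minus strand): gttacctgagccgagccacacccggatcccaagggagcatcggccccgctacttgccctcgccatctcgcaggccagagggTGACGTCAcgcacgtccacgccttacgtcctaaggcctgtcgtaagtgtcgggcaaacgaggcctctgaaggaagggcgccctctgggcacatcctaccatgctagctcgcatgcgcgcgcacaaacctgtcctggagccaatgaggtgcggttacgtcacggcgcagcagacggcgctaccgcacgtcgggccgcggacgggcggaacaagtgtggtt
Cox6a1 (chr5:115348909-115349208, minus strand): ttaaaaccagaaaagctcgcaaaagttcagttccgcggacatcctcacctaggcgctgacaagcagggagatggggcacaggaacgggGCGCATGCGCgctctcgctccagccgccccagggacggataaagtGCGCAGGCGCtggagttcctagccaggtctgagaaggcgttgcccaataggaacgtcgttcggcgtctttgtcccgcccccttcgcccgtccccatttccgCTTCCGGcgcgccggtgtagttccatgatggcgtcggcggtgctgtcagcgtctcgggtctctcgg
Uqcrh (chr4:116075021-116075320, minus strand): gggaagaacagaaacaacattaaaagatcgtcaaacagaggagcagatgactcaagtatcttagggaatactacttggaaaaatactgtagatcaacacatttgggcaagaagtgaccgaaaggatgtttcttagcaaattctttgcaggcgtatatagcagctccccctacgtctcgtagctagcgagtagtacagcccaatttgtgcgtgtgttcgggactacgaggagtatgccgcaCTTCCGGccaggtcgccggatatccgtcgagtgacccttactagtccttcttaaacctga
Atp5g1 (chr11:96075582-96075881, minus strand): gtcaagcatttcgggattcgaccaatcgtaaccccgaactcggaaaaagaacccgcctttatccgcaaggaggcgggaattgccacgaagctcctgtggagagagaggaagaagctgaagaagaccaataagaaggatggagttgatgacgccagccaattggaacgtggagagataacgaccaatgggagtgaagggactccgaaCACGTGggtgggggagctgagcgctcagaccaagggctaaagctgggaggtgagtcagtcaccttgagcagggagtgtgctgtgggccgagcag
Atp5g2 (chr15:102670998-102671297, minus strand): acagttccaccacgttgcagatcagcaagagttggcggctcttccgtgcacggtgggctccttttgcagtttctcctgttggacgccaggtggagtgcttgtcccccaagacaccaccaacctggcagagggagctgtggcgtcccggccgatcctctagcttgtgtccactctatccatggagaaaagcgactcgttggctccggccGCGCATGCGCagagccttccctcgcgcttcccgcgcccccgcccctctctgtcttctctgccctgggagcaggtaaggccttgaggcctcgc
Atp5g3 (chr2:73911277-73911576, minus strand): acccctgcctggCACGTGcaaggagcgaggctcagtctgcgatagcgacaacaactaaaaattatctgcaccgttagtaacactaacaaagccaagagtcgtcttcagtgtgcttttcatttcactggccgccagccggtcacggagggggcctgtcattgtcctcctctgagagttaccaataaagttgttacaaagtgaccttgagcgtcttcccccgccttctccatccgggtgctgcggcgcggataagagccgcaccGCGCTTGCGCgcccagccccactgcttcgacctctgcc

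Mitotic cells held a larger share of these RNAs than noncycling cells. Mitotic cells had at least 5 thinned UMIs over a list of 20 mitotic genes, and noncycling cells had at most 1 of those, at most 2 over 18 S-phase genes and no UMI of Mcm5, a helicase subunit of DNA replication. The 45 members summed to 18765 (NP 1), 19668 (NP 2) and 18988 (OVA 1) CPM in mitotic cells, against 13929, 14826 and 14504 in noncycling cells, a ratio of 1.33 ± 0.019 (SD, n = 3). Each mitotic value lay above every noncycling value. Of the 41 members tested, 29 rose and 2 fell (edgeR quasi-likelihood test blocked on library, Benjamini-Hochberg adjusted over all 7962 genes tested), where 22% of all genes tested rose and 22.1% fell. The median log2 fold of the members was 0.33, against -0.03 over all genes tested. The CPM values are unscaled, whereas edgeR rescales the library sums. Folds here and below can therefore differ from the ratios of the CPM values beside them. Without the library term 16 members rose and 0 fell.

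Mitotic cells also had more RNA and fewer memory-like cells. Their median depth before thinning was 7965, 11183 and 11435 UMIs, against 4617, 6278 and 6269 in noncycling cells. Without thinning a mitotic cell held on average 178, 239 and 249 UMIs of the members, against 72.2, 101 and 101 in a noncycling cell. A UMI of Klf2 or Ccr6, genes of memory and naive B cells, was present in 4 of 472, 10 of 323 and 11 of 365 mitotic cells, against 58 of 668, 51 of 485 and 146 of 795 noncycling cells. Without those cells the same 31 members were called in the same direction, and 1 more was called lower. The part of RNA content per cell in the result was not tested beyond the thinning.

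**Figure D1:**
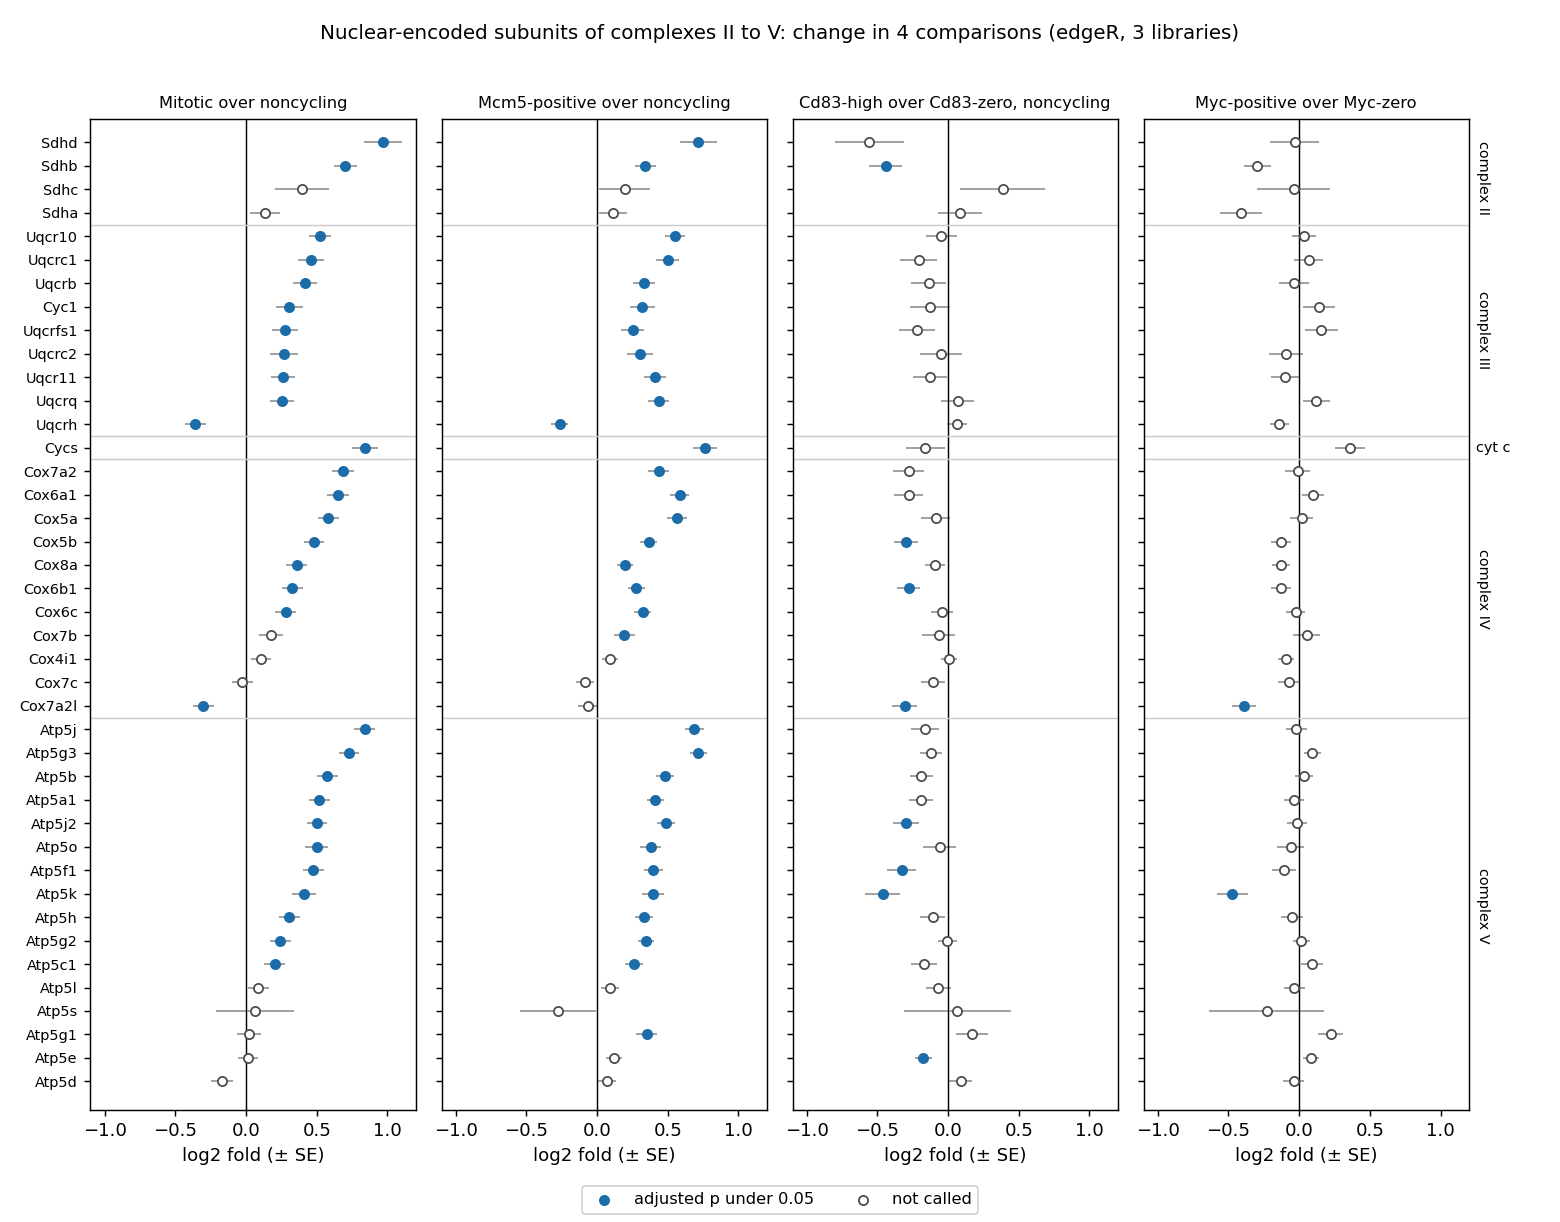
Log2 fold (± SE) of each of the 41 tested members in 4 comparisons, grouped by complex and ordered by the mitotic fold. Filled points passed an adjusted p of 0.05. Most members of each complex sit right of 0 in mitotic and Mcm5-positive cells, with Uqcrh left of 0 in both, and left of 0 or near it in Cd83-high cells.

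In complex II, only the iron-sulfur subunit and 1 membrane anchor passed the test. Sdhd, an anchor, had 101, 86.7 and 112 CPM in mitotic cells, against 52.1, 43.7 and 47.3 in noncycling cells (NP 1, NP 2 and OVA 1 in that order here and below). Its lowest mitotic value was above its highest noncycling value, and its log2 fold of 0.97 ± 0.14 (SE) was the largest of all members (edgeR adjusted p = 2.05e-11). Sdhb had 367, 420 and 356 CPM in mitotic cells, against 217, 241 and 199 in noncycling cells, a log2 fold of 0.70 ± 0.08 (edgeR adjusted p = 1.28e-16). Sdha, the flavoprotein that oxidizes succinate, had 133, 133 and 117 CPM in mitotic cells, against 116, 101 and 108. Its groups did not overlap, but its log2 fold of 0.13 ± 0.11 was not called (edgeR adjusted p = 0.324). Sdhc, the other anchor, had a log2 fold of 0.40 ± 0.19 that missed the threshold (edgeR adjusted p = 0.0817) on the lowest counts of the complex.

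Complex III split 8 to 1. Uqcr10, a small subunit, had 388, 376 and 388 CPM in mitotic cells, against 246, 256 and 250 in noncycling cells, a log2 fold of 0.52 ± 0.08. Uqcrc1, a core protein, had a log2 fold of 0.46 ± 0.09. The groups of both genes were apart, and the other 6 genes that rose, among them Cyc1 (cytochrome c1) and Uqcrfs1 (the Rieske iron-sulfur protein), had log2 folds of 0.26 to 0.42. Uqcrh went the other way. It had 541, 582 and 563 CPM in mitotic cells, against 614, 698 and 710 in noncycling cells, lower in 3 of 3 libraries and without overlap (log2 fold -0.36 ± 0.07, edgeR adjusted p = 6.69e-06).

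Cytochrome c, the mobile carrier that also triggers apoptosis when it leaves the mitochondrion, rose in mitotic cells. Cycs had 273, 249 and 242 CPM in mitotic cells, against 149, 134 and 118 in noncycling cells. Every mitotic value lay above every noncycling value, and the log2 fold was 0.84 ± 0.09 (edgeR adjusted p = 2.12e-18).

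In complex IV, 7 of 11 tested members rose and 1 fell. Cox7a2, the form of subunit 7a found in most tissues, had 462, 450 and 354 CPM in mitotic cells, against 230, 275 and 232, a log2 fold of 0.68 ± 0.08. Cox6a1, the general form of subunit 6a, had 508, 497 and 494 CPM in mitotic cells, against 304, 316 and 276, a log2 fold of 0.65 ± 0.08. Neither gene's groups overlapped. Cox5a and Cox5b, which are separate subunits despite their names, rose by 0.58 ± 0.08 and 0.48 ± 0.07 on the log2 scale. Cox8a, Cox6b1 and Cox6c rose by less, at log2 folds of 0.36, 0.33 and 0.28. Cox7b (0.18 ± 0.08), Cox4i1 (0.11 ± 0.07) and Cox7c (-0.03 ± 0.07) were not called.

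Cox7a2l, a gene related to Cox7a2, had 357, 459 and 300 CPM in mitotic cells, against 454, 461 and 357 in noncycling cells. It was lower in 3 of 3 libraries while the groups overlapped across libraries (log2 fold -0.30 ± 0.08, edgeR adjusted p = 0.000375). NP 2 contributed the smallest difference. The gene was not called with DESeq2.

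In complex V, 11 of 16 members rose and none fell. Atp5j, coupling factor 6 of the stalk, had 597, 656 and 571 CPM in mitotic cells, against 283, 344 and 327 in noncycling cells, a log2 fold of 0.84 ± 0.08 (edgeR adjusted p = 1.56e-26). Its groups were far apart. Atp5b and Atp5a1, the beta and alpha subunits of the catalytic head, rose by 0.57 ± 0.07 and 0.52 ± 0.07 on the log2 scale, whereas the head's small subunits Atp5d (delta, -0.17 ± 0.07, edgeR adjusted p = 0.0536) and Atp5e (0.02 ± 0.07) were not called.

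The 3 genes for the c-ring of the synthase encode the same mature subunit with different import sequences, and they did not move alike. Atp5g3 had 910, 1029 and 932 CPM in mitotic cells, against 498, 559 and 558 in noncycling cells (log2 fold 0.73 ± 0.07). Atp5g2 had 803, 1006 and 970 CPM in mitotic cells, against 610, 790 and 794 (log2 fold 0.24 ± 0.07, edgeR adjusted p = 0.00233). Atp5g1 had 239, 251 and 253 CPM in mitotic cells, against 214, 233 and 238 (log2 fold 0.02 ± 0.09, not called). Of all c-ring UMIs, Atp5g3 gave 46.6%, 45.02% and 43.2% in mitotic cells, against 37.7%, 35.3% and 35.1% in noncycling cells. The Atp5g3 share was higher in mitotic cells of every library; the difference in fold between the paralogs was not itself tested. Related gene copies could share reads, and how the authors' counting handled such reads is not given in the sources used here.

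**Figure D2:**
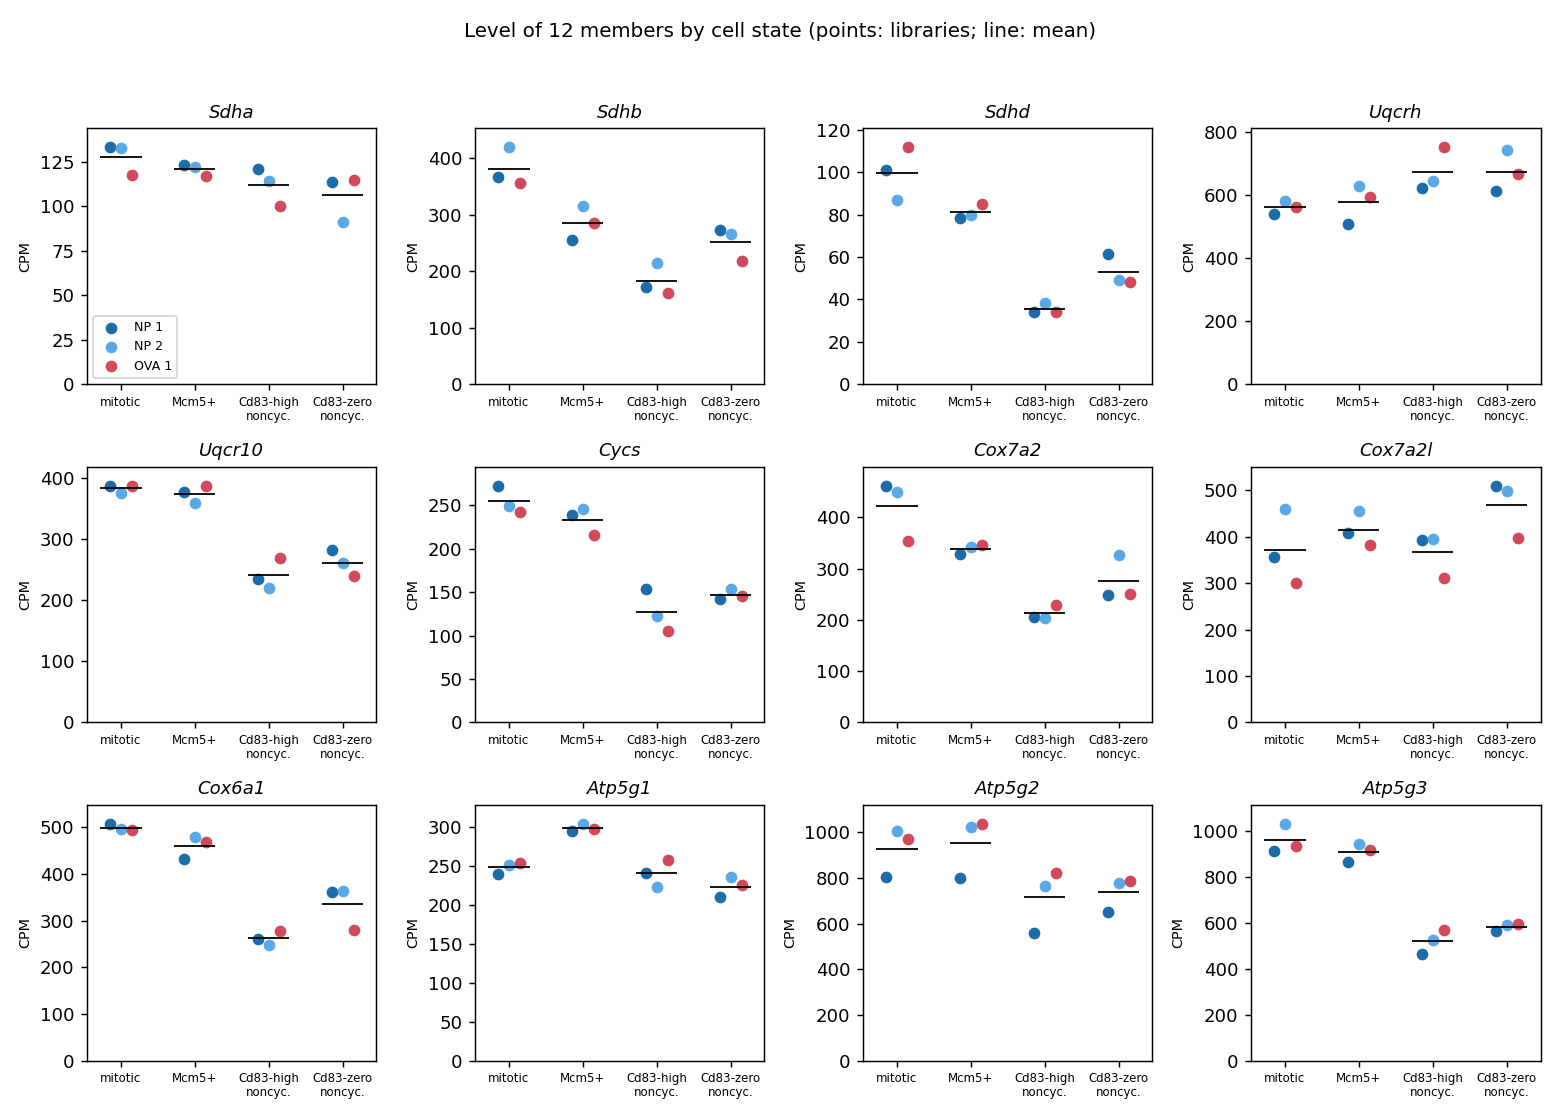
Level (CPM) of 12 members in mitotic, Mcm5-positive, Cd83-high noncycling and Cd83-zero noncycling cells, with 1 point per library and a line at the mean. Sdhd, Cycs and Atp5g3 are high in both cycling groups, Uqcrh is not, and Atp5g1 is highest in Mcm5-positive cells.

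Mcm5-positive cells, with at least 1 UMI of Mcm5 and fewer than 5 mitotic UMIs, gave a similar count. The members summed to 17440, 18391 and 18742 CPM in Mcm5-positive cells, against 13929, 14826 and 14504 in the same noncycling cells, a ratio of 1.26 ± 0.027. The groups did not overlap. Of 41 members 31 rose and 1 fell, where 20.3% of all genes tested rose and 16.6% fell, and the median log2 fold was 0.34, against -0.02 over all genes. Without the library term 10 rose and 0 fell. Median depth before thinning was 7878, 10491 and 10348.5 UMIs in Mcm5-positive cells, against 4617, 6278 and 6269 in noncycling cells. A UMI of Klf2 or Ccr6 was present in 9 of 674, 12 of 437 and 15 of 512 Mcm5-positive cells, against 58 of 668, 51 of 485 and 146 of 795 noncycling cells. Without those cells 30 members rose and 1 fell. The part of RNA content per cell was not tested beyond the thinning here either. Both comparisons share the noncycling cells, so their agreement is not independent.

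The members with large folds in Mcm5-positive cells were Cycs (0.76 ± 0.08), Sdhd (0.72 ± 0.13), Atp5g3 (0.72 ± 0.06), Atp5j (0.69 ± 0.07), Cox6a1 (0.59 ± 0.07), Cox5a (0.57 ± 0.07), Uqcr10 (0.55 ± 0.07) and Uqcrc1 (0.50 ± 0.08), all on the log2 scale and called by edgeR. Cycs had 239, 245 and 216 CPM in Mcm5-positive cells, against 149, 134 and 118. Sdhb rose by 0.34 ± 0.08, while Sdha (0.11 ± 0.10) and Sdhc (0.20 ± 0.18) were not called. Among the paralogs, Cox7a2 (0.43 ± 0.07), Cox5b (0.36 ± 0.06), Cox6c (0.32 ± 0.06), Cox6b1 (0.28 ± 0.06), Cox8a (0.20 ± 0.06) and Cox7b (0.19 ± 0.07) rose, and Cox4i1 (0.09 ± 0.06), Cox7c (-0.09 ± 0.06) and Cox7a2l (-0.07 ± 0.07) were not called. Uqcrh was again the 1 member that fell. It had 510, 629 and 596 CPM in Mcm5-positive cells, against 614, 698 and 710, lower in 3 of 3 libraries with overlapping groups (log2 fold -0.26 ± 0.06, edgeR adjusted p = 8.49e-05). Unlike in mitotic cells, all 3 c-ring genes were called, at 0.72 ± 0.06 for Atp5g3, 0.35 ± 0.06 for Atp5g2 and 0.35 ± 0.07 for Atp5g1.

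Mitotic and Mcm5-positive cells were then compared directly, a comparison chosen after the values above were seen. Of 41 members 7 were higher and 3 lower in mitotic cells, where 10.1% of all genes were higher and 9.07% lower. Sdhb had 367, 420 and 356 CPM in mitotic cells, against 255, 315 and 286 in Mcm5-positive cells (log2 fold 0.41 ± 0.07). Atp5g1 had 239, 251 and 253 CPM in mitotic cells, against 295, 304 and 298 (log2 fold -0.29 ± 0.07). The groups of both were apart. Cox7a2 (0.31 ± 0.07), Cox8a (0.21 ± 0.05) and Atp5j (0.20 ± 0.05) were among the higher members, and Atp5d (-0.19 ± 0.06) and Cox7a2l (-0.18 ± 0.07, lower in 2 of 3 libraries) among the lower. Sdha (0.07 ± 0.10), Sdhc (0.24 ± 0.18), Sdhd (0.30 ± 0.12) and Cycs (0.12 ± 0.08) were not called. With DESeq2 the counts were 1 higher and 0 lower, without the library term 0 and 0, and without NP 1 the higher count was 3.

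**Figure D3:**
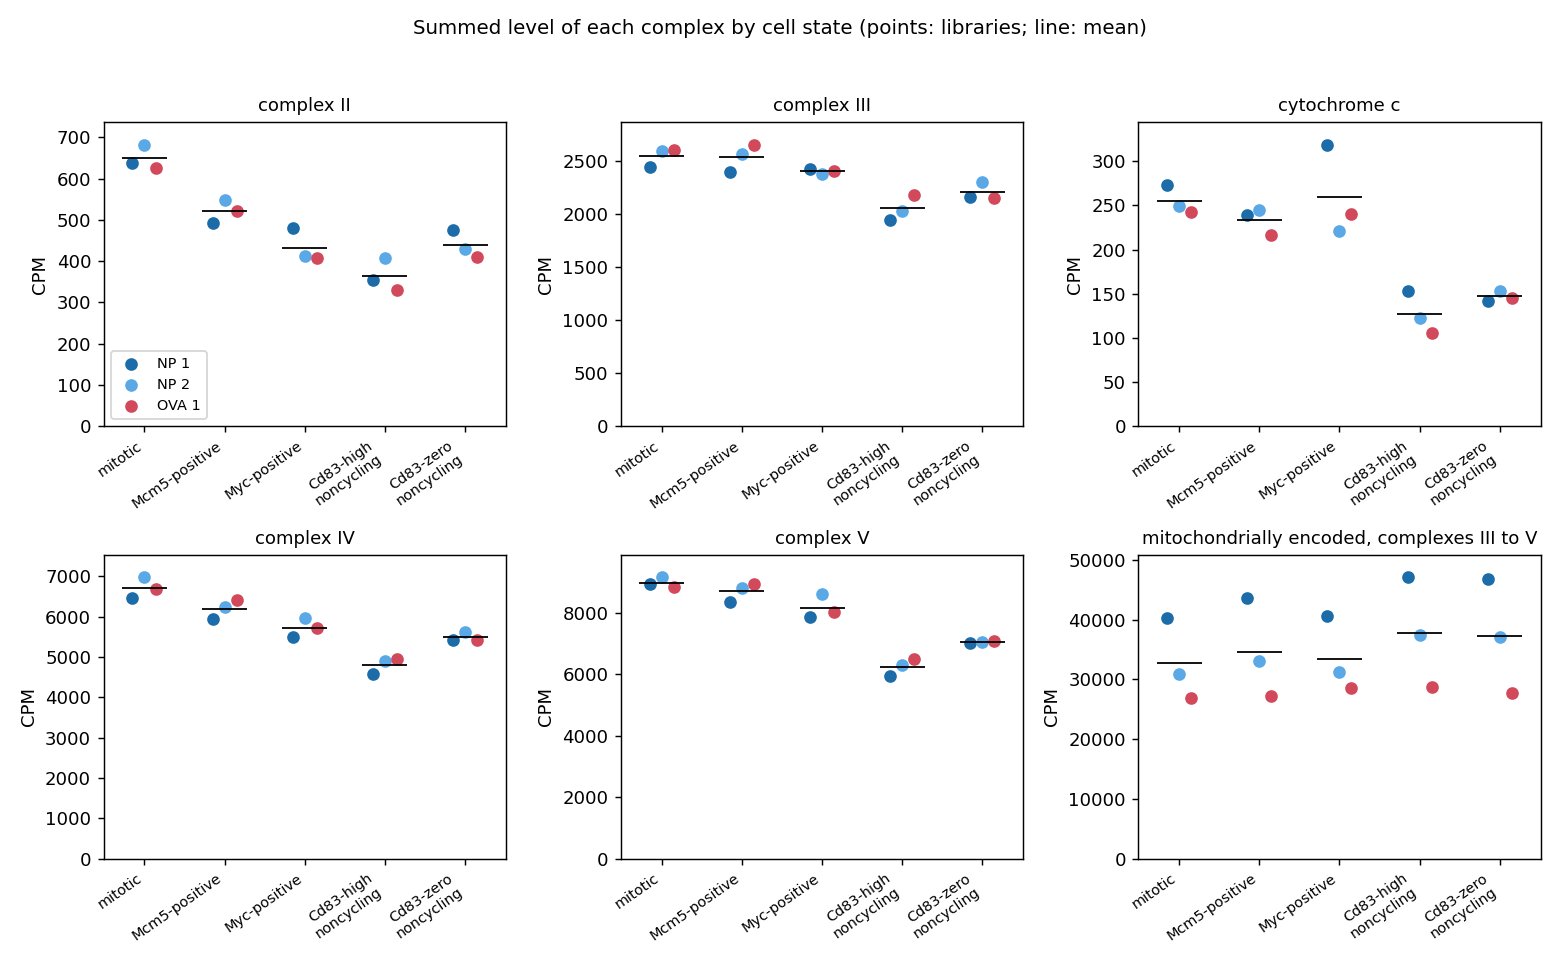
Summed level (CPM) of each complex and of the 6 mitochondrially encoded genes of complexes III to V by cell state, with 1 point per library and a line at the mean. Complexes II to V and cytochrome c are higher in mitotic and Mcm5-positive cells than in either noncycling class, while mitochondrially encoded RNA is ordered by library.

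By complex, the summed share in mitotic over noncycling cells was 1.61 ± 0.045 for complex II, 1.202 ± 0.016 for complex III, 1.92 ± 0.123 for cytochrome c, 1.303 ± 0.010 for complex IV and 1.36 ± 0.042 for complex V (SD, n = 3). In Mcm5-positive over noncycling cells it was 1.29 ± 0.082 for complex II, 1.198 ± 0.030 for complex III, 1.76 ± 0.135 for cytochrome c, 1.21 ± 0.038 for complex IV and 1.31 ± 0.017 for complex V. Complex III had the smallest mean ratio in both, though within the spread of complex IV in Mcm5-positive cells. Uqcrh, the most abundant member of complex III, fell in both comparisons and so enters these ratios with the opposite sign. The complex III ratio without Uqcrh was not computed.

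The mitochondrially encoded partners went the other way as shares. The 6 genes of complexes III to V were mt-Cytb, mt-Co1, mt-Co2, mt-Co3, mt-Atp6 and mt-Atp8. They summed to 40249, 30957 and 26891 CPM in mitotic cells, against 46875, 37532 and 28367 in noncycling cells. All 6 were called lower by edgeR, which rescales the library sums, with a median log2 fold of -0.24. The fold of mt-Co1, the catalytic core of complex IV, fell by 0.465 ± 0.08. In OVA 1 the unscaled CPM was slightly higher in mitotic cells for mt-Atp6 (3962 against 3909) and mt-Atp8 (1335 against 1332). In Mcm5-positive cells only mt-Co1 was called lower (-0.31 ± 0.05). For each 100 mitochondrially encoded UMIs, mitotic cells held 44.4, 60.5 and 67.4 nuclear-encoded UMIs of complexes III to V, against 28.5, 38.0 and 49.4 in noncycling cells. The ratio was higher in mitotic cells of each library, but libraries differ enough that the groups overlapped. Before thinning a mitotic cell held 333, 337 and 281 mitochondrially encoded UMIs, against 229, 232 and 176 in a noncycling cell, so per cell these RNAs were higher too. Cells above 10% mitochondrial UMIs were left out beforehand, a filter that acts on these genes directly.

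Of the 37 nuclear-encoded complex I genes tested, 19 rose and 1 fell in mitotic cells (median log2 fold 0.25) and 18 rose and 1 fell in Mcm5-positive cells (0.23). Of all genes tested, 22% rose and 22.1% fell in mitotic cells, and 20.3% rose and 16.6% fell in Mcm5-positive cells. The assembly factors of complexes II to V, which help build the complexes or supply their cofactors, were called no more often than all genes tested. Of 33 tested 5 rose and 6 fell in mitotic cells (median log2 fold -0.10), and of 34 tested 4 rose and 1 fell in Mcm5-positive cells (0.02). Outside the symbol rule, Atpif1, the inhibitor of the ATP synthase, rose in mitotic cells (0.68 ± 0.10) and in Mcm5-positive cells (0.67 ± 0.09). Usmg5, a small subunit of the synthase, rose in both as well (0.41 ± 0.08 and 0.33 ± 0.07), and 2010107E04Rik was called in neither (0.08 ± 0.08 and 0.13 ± 0.07).

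Among noncycling cells, those with at least 2 UMIs of Cd83, a surface marker of light-zone B cells that receive antigen and T cell help, had a smaller share of these RNAs than those with none. The members summed to 12955, 13774 and 14059 CPM in Cd83-high cells, against 15217, 15553 and 15203 in Cd83-zero cells, a ratio of 0.89 ± 0.037, and the groups did not overlap. Of 41 members 0 rose and 8 fell, where 3.76% of all genes tested rose and 2.37% fell. The median log2 fold was -0.13, against 0.00 over all genes. Median depth was close, at 4664, 6498 and 6258 UMIs in Cd83-high cells, against 4569, 5882 and 6183.

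The 8 genes that fell came from complexes II, IV and V. Sdhb had 172, 215 and 161 CPM in Cd83-high cells, against 274, 265 and 219 in Cd83-zero cells, without overlap (log2 fold -0.44 ± 0.12, edgeR adjusted p = 0.00597). Cox5b had 402, 405 and 444 CPM in Cd83-high cells, against 526, 521 and 543, without overlap (-0.30 ± 0.08, edgeR adjusted p = 0.0101). Atp5f1, subunit b of the stalk, had 296, 242 and 271 CPM in Cd83-high cells, against 340, 383 and 346, without overlap (-0.33 ± 0.10, edgeR adjusted p = 0.0223). Atp5k had 237, 89.8 and 139 CPM in Cd83-high cells, against 346, 140 and 181, lower in 3 of 3 libraries with overlapping groups (-0.46 ± 0.12, edgeR adjusted p = 0.00606). Cox7a2l (-0.31 ± 0.09), Atp5j2 (subunit f, -0.30 ± 0.09), Cox6b1 (-0.28 ± 0.08) and Atp5e (-0.18 ± 0.06) were the others.

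Sdhd had a log2 fold larger in size than any of them, -0.56 ± 0.24, but missed the threshold (edgeR adjusted p = 0.197). Sdha (0.08 ± 0.15), Sdhc (0.39 ± 0.30) and Cycs (-0.16 ± 0.14) were not called, nor were Cox7a2 (-0.28 ± 0.11), Cox6a1 (-0.28 ± 0.10), Cox4i1 (0.01 ± 0.06), Cox7c (-0.11 ± 0.08), Cox8a (-0.09 ± 0.07), Cox5a (-0.09 ± 0.10), Cox7b (-0.07 ± 0.12) and Cox6c (-0.04 ± 0.08). Of the c-ring genes, Atp5g3 (-0.12 ± 0.08), Atp5g2 (-0.01 ± 0.07) and Atp5g1 (0.17 ± 0.11) were not called. The calls are few and depend on the setting: the count was 0 with DESeq2, 0 without the library term, 1 without NP 1, 4 without NP 2, 6 without OVA 1 and 14 with all UMIs kept.

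Of the mitochondrially encoded genes, mt-Co1 (0.11 ± 0.03) and mt-Co3 (0.10 ± 0.03) rose in Cd83-high cells. Of the complex I genes 0 rose and 1 fell (median -0.11). Of the light-zone list, which holds Cd83 itself, 9 of 10 rose, and of the 7 tested genes of a list of early-response genes that dissociation of tissue is known to induce, 3 rose. The part of these in the result was not tested.

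Cells with at least 1 UMI of Myc, the growth regulator induced in light-zone cells on positive selection, differed little in their summed share of these RNAs from cells with none. The members summed to 16582, 17596 and 16796 CPM in Myc-positive cells, against 16698, 17601 and 17092 in Myc-zero cells, a ratio of 0.99 ± 0.009, and the groups overlapped. Of 41 members 0 rose and 2 fell, where 1.44% of all genes rose and 0.752% fell. Cox7a2l had 305, 400 and 269 CPM in Myc-positive cells, against 420, 464 and 363, lower in 3 of 3 libraries with overlapping groups (log2 fold -0.39 ± 0.09, edgeR adjusted p = 0.004). Atp5k had 255, 105 and 172 CPM in Myc-positive cells, against 366, 163 and 212, also lower in each library (-0.47 ± 0.11, edgeR adjusted p = 0.007). Both calls were lost with DESeq2, without the library term, with a second random thinning, without NP 1 and without NP 2.

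Cycs had 319, 221 and 241 CPM in Myc-positive cells, against 218, 212 and 180 in Myc-zero cells. It was higher in 3 of 3 libraries without overlap, and its log2 fold of 0.36 ± 0.10 missed the threshold (edgeR adjusted p = 0.053). Sdha (-0.41 ± 0.15), Sdhb (-0.29 ± 0.10), Sdhc (-0.04 ± 0.26) and Sdhd (-0.03 ± 0.17) were not called. Myc-positive cells were both cycling and noncycling, and the members summed to 17828, 19375 and 18372 CPM in those that were mitotic or Mcm5-positive, against 13444, 12967 and 14344 in those that were noncycling. The noncycling Myc-positive cells numbered 36, 24 and 72.

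No member passed the test between switched cells (IgG or IgA) and unswitched cells (IgM or IgD). The members summed to 16962, 17689 and 17397 CPM in switched cells, against 16633, 17767 and 17055 in unswitched cells, a ratio of 1.01 ± 0.014. Of 41 members 0 rose and 0 fell by edgeR, with 5 at an unadjusted p under 0.05 and 0 by DESeq2, where 1.07% of all genes rose and 1.92% fell. The member folds ran from -0.25 (Sdha) to 0.16 (Cycs) on the log2 scale. Sdha had 105, 113 and 105 CPM in switched cells, against 141, 119 and 119, without overlap (-0.25 ± 0.08, edgeR adjusted p = 0.082). Sdhb (-0.09 ± 0.06), Sdhc (-0.08 ± 0.15) and Sdhd (0.04 ± 0.10) were not called, nor was Cycs (0.16 ± 0.07).

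By subclass the members summed to 17337 ± 693 CPM in IgG1, 17489 ± 155 in IgG2b, 17463 ± 630 in IgG2c and 17081 ± 692 in IgG3 cells, against 17152 ± 573 in IgM or IgD cells (SD, n = 3). Within libraries IgG1 cells were above IgM or IgD cells in 3 of 3, and IgG2b, IgG2c and IgG3 cells in 2 of 3 each. Among noncycling cells alone the sums were 14400 ± 797 in IgG1, 14965 ± 380 in IgG2b, 14899 ± 396 in IgG2c and 14905 ± 701 in IgG3 cells, against 14173 ± 652 in IgM or IgD cells. There IgG2b and IgG3 cells were above IgM or IgD cells in 3 of 3 libraries, and IgG1 and IgG2c cells in 2 of 3. These subclass sums were not tested.

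By clone size, cells seen once in their library summed to 16340, 17492 and 16512 CPM, cells of clones of 2 to 4 to 17256, 17782 and 17320, and cells of clones of 5 or more to 17400, 18328 and 18167. The sums were ordered by clone size within each library, while the ranges over libraries overlapped. Expanded cells (clones of 2 or more) against single cells gave a ratio of 1.06 ± 0.023. Of 41 members 0 rose and 0 fell by edgeR, with 8 at an unadjusted p under 0.05 and 0 by DESeq2, where 1.02% of all genes rose and 1.98% fell. The median log2 fold was 0.06, against 0.00 over all genes. Of the 41 folds 37 were positive, a count that was not tested and has no share over all genes beside it. All 16 complex V folds were positive, from 0.005 (Atp5g2) to 0.132 (Atp5k), and none was called.

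Sdhd had 87.1, 76.6 and 86.0 CPM in expanded cells, against 66.6, 69.1 and 71.4 in single cells, without overlap, and was not called (0.25 ± 0.10, edgeR adjusted p = 0.203). Cycs (0.16 ± 0.06), Sdha (0.07 ± 0.08), Sdhb (0.03 ± 0.06) and Sdhc (0.10 ± 0.15) were not called. The mitotic list summed 1.29 ± 0.072 times as high in expanded as in single cells, and 6 of the 7 tested memory and naive genes fell. Among noncycling cells the members summed to 13664, 14863 and 14014 CPM in single cells, 14244, 14800 and 14537 in clones of 2 to 4, and 14162, 15305 and 15521 in clones of 5 or more, so clones of 5 or more were above single cells in 3 of 3 libraries. Clones of 2 to 4 lay between them in OVA 1 only.

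**Figure D4:**
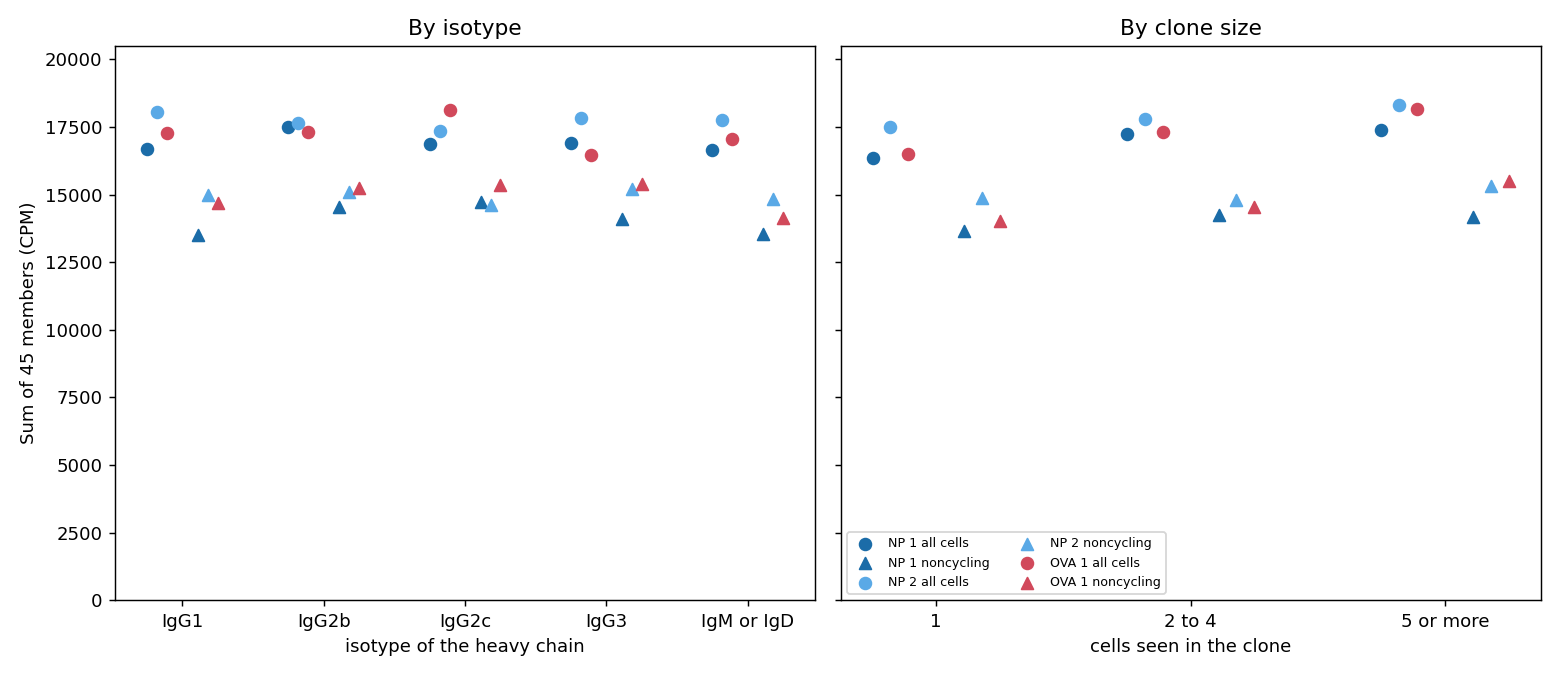
Sum of the 45 members (CPM) by heavy-chain isotype and by clone size, for all cells (circles) and noncycling cells (triangles), colored by library. Noncycling cells lie below all cells of the same class and library throughout.

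NP and OVA cells could be compared only with 1 residual degree of freedom, and the antigen, the NP-binding gate and any difference in sorting day cannot be told apart. The mix of cells differed too. Noncycling cells were 668 of 2329 (NP 1) and 485 of 1581 (NP 2), against 795 of 2113 in OVA 1. A UMI of Klf2 or Ccr6 was present in 79 and 83 cells, against 197. The part of this mix was not tested beyond runs within noncycling or cycling cells and without memory-like cells. Of 43 members tested 0 rose and 0 fell by edgeR, with 0 at an unadjusted p under 0.05 and 0 by DESeq2, where 0.488% of all genes rose and 0.712% fell. The median log2 fold was 0.06. Cycs had 224 and 213 CPM in the NP libraries, against 186 in OVA 1 (0.26 ± 0.27). Sdha (0.06 ± 0.27), Sdhb (0.18 ± 0.28), Sdhc (0.03 ± 0.29) and Sdhd (-0.05 ± 0.27) were not called either. Of the 10 tested early-response genes known from tissue dissociation, 5 were lower in NP cells. For the other 7 comparisons, the difference in log2 fold between OVA and NP libraries (OVA minus NP) is given as a size only, since there was 1 OVA library. Its median over members ran from -0.115 (mitotic against noncycling) to 0.079 (Cd83-high against Cd83-zero). Agreement between NP and OVA libraries is not shown by these values.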

How the data were processed

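Values are UMI counts per gene and cell, deposited by the authors after Cell Ranger processing against mm10, per the submitters' processing notes; no further normalization is recorded, and the handling of reads shared by gene copies is not given in the sources used here. Cells with at least 500 genes, at most 10% mitochondrial UMIs and no more T, NK, myeloid and erythroid than B cell marker UMIs were kept, and 2329, 1581 and 2113 with at least 2500 UMIs were thinned once to 2500. Among all thinned cells, 202, 97 and 120 had a mitotic sum of 4 or 5, beside the limit of 5; 403, 265 and 322 had exactly 1 Mcm5 UMI, 115, 89 and 138 exactly 1 Myc UMI, and 156, 127 and 210 noncycling cells had 1 Cd83 UMI and entered neither Cd83 class. No doublet caller was used; an alternative dropped the 43, 46 and 41 cells holding over 1 productive heavy chain.

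Isotype came from the heavy chain with most UMIs, and clones shared library, V and J genes and CDR3 nucleotides, taken from the deposited receptor tables' UMI counts. Counts were summed per library and class, and 225 immunoglobulin genes were left out of the tests. edgeR 4.0.16 (R 4.3.3) fitted TMM-scaled sums with filterByExpr and library as a block, and DESeq2 1.42.0 was an alternative. The test was also run on simulated counts with known changes. Those counts held no gene-level difference between libraries, so that run does not measure power or error rates for these data. Calls used an adjusted p of 0.05 over all genes tested. Named members were all Sdh genes and Cycs in each comparison, the 2 largest called folds with 1 sign in each of complexes III to V, members called against the majority, and the tested paralog families in the mitotic, Mcm5 and Cd83 comparisons. That limit to 3 comparisons was set after values were seen, as was the alternative without memory-like cells (a UMI of Klf2 or Ccr6). The rule also names the members of highest and lowest level in each complex. The memory and naive list leaves out 1 gene that is not reported here. Atpif1, Usmg5 and 2010107E04Rik were moved out of the assembly factor list after values were seen, since they are no assembly factors. Members, lists and classes were chosen with earlier results of these data known. Alternatives covered thinning depth, class limits, scaling, filters, the tool and leaving out each library.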

Additional observations from a re-analysis of the deposited data

Results flagged for a closer look

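The median log2 ratio of the 41 tested members between Myc-positive and Myc-zero cells was 0.013 in NP 1 and 0.035 in NP 2, against -0.003 in the OVA library, computed from counts per 1000000 UMIs (CPM) without TMM scaling. It was listed because the OVA library lay on the other side of 0 from both NP libraries. The difference was not tested at the level of the median, and with 1 OVA library the spread among OVA libraries is not known.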

How the results depend on the processing

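No member that was called changed sign under any alternative run. The library term was the replicate block here, since both groups of a comparison come from the same library. For mitotic against noncycling cells, members called higher were 29 as reported, and 16 with no replicate block. Of the 31 members called in either direction, 24 kept their call with DESeq2, 23 with the mitotic limit at 10 UMIs and 23 without NP 1. The calls lost with DESeq2 included Cyc1, Uqcr11, Uqcrc2, Uqcrfs1 and Uqcrq, all of complex III. For mitotic against noncycling cells, members called lower were 2 as reported, and 1 with DESeq2 and 0 with no replicate block. For mitotic against noncycling cells, the median log2 fold was 0.327 as reported, and 0.447 with all UMIs kept, 0.421 with library sizes only, 0.375 with the mitotic limit at 3 UMIs, 0.39 with no low-count filter, 0.286 without memory-like cells and 0.296 to 0.401 leaving out 1 library. For Mcm5-positive against noncycling cells, members called higher were 31 as reported, and 10 with no replicate block. Of the 32 members called in either direction, 25 kept their call with DESeq2 and 25 when thinned to 1500 UMIs. For Mcm5-positive against noncycling cells, members called lower were 1 as reported, and 2 with all UMIs kept and 0 with no replicate block. For Mcm5-positive against noncycling cells, the median log2 fold was 0.341 as reported, and 0.374 with library sizes only, 0.299 with no mitochondrial filter, 0.306 with a second seed, 0.294 when thinned to 1500 UMIs and 0.304 to 0.36 leaving out 1 library. For Cd83-high against Cd83-zero cells, members called lower were 8 as reported, and 4 with Cd83 at 1 UMI and thinned over non-immunoglobulin UMIs, 5 with Cd83 at 3 UMIs, 0 with DESeq2 and no replicate block, 14 with all UMIs kept, 2 when thinned to 1500 UMIs and 1 to 6 leaving out 1 library. For Cd83-high against Cd83-zero cells, the median log2 fold was -0.128 as reported, and -0.175 with library sizes only. For Myc-positive against Myc-zero cells, members called higher were 0 as reported, and 1 with at most 1 heavy chain, library sizes only and without memory-like cells and 3 with all UMIs kept. For Myc-positive against Myc-zero cells, members called lower were 2 as reported, and 0 with DESeq2, mitotic or Mcm5-positive cells only, no replicate block, noncycling cells only, a second seed and thinned to 1500 UMIs, 1 when thinned over non-immunoglobulin UMIs and 0 to 2 leaving out 1 library. For Myc-positive against Myc-zero cells, the median log2 fold was -0.034 as reported, and -0.013 with DESeq2, 0.002 with all UMIs kept, -0.008 with mitotic or Mcm5-positive cells only, -0.081 with no low-count filter, -0.091 with noncycling cells only, -0.003 when thinned over non-immunoglobulin UMIs, -0.011 when thinned to 1500 UMIs and -0.025 to 0.002 leaving out 1 library. For switched against unswitched cells, members called lower were 0 as reported, and 1 with all UMIs kept, second seed and thinned over non-immunoglobulin UMIs. For switched against unswitched cells, the median log2 fold was 0 as reported, and -0.018 with mitotic or Mcm5-positive cells only and -0.02 without memory-like cells. For expanded against single cells, members called higher were 0 as reported, and 1 with all UMIs kept and thinned over non-immunoglobulin UMIs and 2 with library sizes only. For expanded against single cells, the median log2 fold was 0.064 as reported, and 0.023 with mitotic or Mcm5-positive cells only. For NP against OVA cells, the median log2 fold was 0.061 as reported, and 0.003 with all UMIs kept, 0.033 with library sizes only, 0.011 with noncycling cells only, 0.019 when thinned over non-immunoglobulin UMIs and -0.037 to 0.129 leaving out 1 library. For mitotic against Mcm5-positive cells, members called higher were 7 as reported, and 1 with DESeq2, 18 with all UMIs kept, 4 with no mitochondrial filter, 0 with no replicate block and 3 to 6 leaving out 1 library. For mitotic against Mcm5-positive cells, members called lower were 3 as reported, and 0 with DESeq2 and no replicate block and 1 to 3 leaving out 1 library.

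Sign changes occurred in named members that were not called, either as reported or under the alternative. In mitotic against noncycling cells, log2 folds changed sign for Atp5g1 (-0.131, -0.009, -0.106 and -0.025, -0.032 to 0.066 leaving out 1 library), Cox7c (0.083, 0.069, 0.03 and 0.025, -0.063 to 0.011 leaving out 1 library) and Sdha (-0.057 and -0.068). In Mcm5-positive against noncycling cells, log2 folds changed sign for Cox7a2l (0.003) and Cox7c (0.011 and 0.019). In Cd83-high against Cd83-zero cells, log2 folds changed sign for Atp5g2 (0.015, 0, 0.041 and 0.046, -0.08 to 0.074 leaving out 1 library), Cox4i1 (-0.014, -0.08, -0.093, -0.041, -0.014, -0.007, -0.089, -0.052 and -0.053, -0.045 to 0.051 leaving out 1 library), Cox7b (0.004), Sdha (-0.018, -0.103 and -0.207, -0.013 to 0.231 leaving out 1 library) and Sdhc (-0.091, -0.028 and -0.151). In Myc-positive against Myc-zero cells, log2 folds changed sign for Sdhc (0.009, 0.048 and 0.316, -0.177 to 0.143 leaving out 1 library) and Sdhd (0.065, 0.19, 0.111 and 0.214, -0.275 to 0.113 leaving out 1 library). In switched against unswitched cells, log2 folds changed sign for Sdha (0.044), Sdhc (0.221 and 0.152) and Sdhd (-0.1, -0.027 to 0.092 leaving out 1 library). In expanded against single cells, log2 folds changed sign for Sdha (-0.205, -0.052, -0.1 and -0.029), Sdhb (-0.057, -0.005 to 0.099 leaving out 1 library), Sdhc (-0.134, -0.096, -0.018 and -0.17) and Sdhd (-0.044). In NP against OVA cells, log2 folds changed sign for Sdha (-0.007, -0.034 and -0.007), Sdhc (-0.02 and -0.107) and Sdhd (0.026). In mitotic against Mcm5-positive cells, log2 folds changed sign for Sdha (-0.155, -0.105 and -0.096) and Sdhd (-0.053). The causes of these shifts were not tested. Scaling by library size alone, without TMM factors, raised the median of the members in mitotic cells to 0.421. The alternatives "no mitochondrial filter", "second seed" and "without memory-like cells" and the mitotic against Mcm5-positive comparison were chosen after seeing the data. Thinning to 2500 UMIs limits what can be seen for Sdhc, Sdhd and Atp5s, and with 3 libraries a difference that was not called is not shown to be absent.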

Other observations

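Cells left out for more than 10% mitochondrial UMIs held a smaller share of these RNAs. The 45 members summed to 11519 CPM in NP 1, 10637 in NP 2 and 9119 in OVA 1 in those cells, against 16691, 17600 and 17066 in the cells used, and the groups did not overlap. The share of mitochondrial UMIs chose these cells and enters the denominator.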
